A study of Homo sapiens with 9 samples.

Results

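Wild-type BPIFB4 (WT-BPIFB4) was compared with an empty plasmid in HEK293T, a line derived from human embryonic kidney that carries the SV40 large T antigen. The comparison took the 3 bead arrays titled as wild type and the 3 titled as empty from a series of 9 arrays, the remaining 3 being from cells given LAV-BPIFB4, the mutated form. All cells grew in DMEM with fetal bovine serum, penicillin and streptomycin, received plasmid with a cationic lipid reagent, and were deprived of serum for 18 hours starting 24 hours after transfection. In the WT-BPIFB4 group the plasmid was pRK5 with the wild-type coding sequence, in the control group it was empty, and both groups share the transfection and the serum deprivation. Transfection of this kind is transient, and the share of cells that took up plasmid is not given in the sources used here. The labels do not tell whether the 3 replicates of a group were separate cultures, so every p-value here is set against the spread between these samples, which may be technical. Each group took neighbouring positions on a single chip, so group and chip position cannot be told apart. Of 47310 probes, 19327 were kept because they stood out from the array's negative controls (detection p-value under 0.05) on 3 or more of the 6 arrays, and these stood for 11267 genes with a single symbol. A gene was represented by its brightest kept probe, and levels are log2 normalized intensities.

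BPIFB4 is a secreted protein of the BPI fold family, whose members bind lipids, and has been studied for its variant forms in long-lived people and for effects on endothelial cells. Several of the genes described below belong to the heat shock response. In that response the transcription factor HSF1 is released from chaperones when unfolded protein accumulates, binds heat shock elements, which are inverted repeats of the unit GAA, and switches on HSP70 chaperones, their HSP40 partners and small heat shock proteins. Small nucleolar RNAs guide the chemical modification of ribosomal and spliceosomal RNA, and many are cut from introns of longer transcripts.

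The median signal of the 6 arrays lay between 93.1 and 135 intensity units, and 19283 to 20658 probes were detected per array. Log2 levels correlated at 0.976 to 0.985 among the WT-BPIFB4 arrays, at 0.98 to 0.985 among the empty vector arrays and at 0.969 to 0.982 between the groups. On the first principal component, which held 37.0% of the variance, the 3 WT-BPIFB4 arrays stood apart from each other at -1.70, 21.4 and 43.7 (replicates 1, 2 and 3), while the empty vector arrays lay between -22.4 and -18.8. WT-BPIFB4 replicate 1 was thus the nearest of its group to the controls. Of 16 HEK293 marker genes on the array, 11 were detected on all 6 arrays, among them EYA1, NEFM, INA, CDH2 and VIM, and 3 (PAX2, PAX8 and PROM1) on none. Of 9 endothelial markers, 8 were detected on none of the 6 arrays. The same held for 4 of 8 haematopoietic, 2 of 6 hepatocyte, 0 of 6 fibroblast and 3 of 5 other epithelial markers. In each of these other lists 1 marker was detected on all 6 arrays: CD14, ALB, COL1A1 and EPCAM. The summed intensity of the HEK293 markers was 16304 to 17167 in WT-BPIFB4 cells and 19899 to 21569 in empty vector cells, and VIM was the only marker called.

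The transfected gene gave no signal that checks the labels. The BPIFB4 probe had signals of 89.2, 106 and 101 in WT-BPIFB4 cells, against 98.8, 98.5 and 83.8 in empty vector cells. Its detection p-values were 0.618, 0.871 and 0.474 in WT-BPIFB4 cells, against 0.699, 0.558 and 0.542 in empty vector cells. The probe was therefore at background on all 6 arrays and was not tested; where it lies relative to the transfected sequence was not examined.

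With the settings reported here, few probes were called between WT-BPIFB4 and empty vector cells, and the largest changes were rises. The number depended on the processing, from 34 to 1629 called probes over the alternatives. Before adjustment, 3206 of the kept probes had a limma p under 0.05. By limma with an adjusted p under 0.05, 218 probes were called, which is 1.13% of those tested, with 125 higher (0.647%) and 93 lower (0.481%) in WT-BPIFB4 cells. Among genes, 149 were called (1.32%): 93 rose (0.825% of those measured) and 56 fell (0.497%), and 34 of the rises but 8 of the falls exceeded 2-fold. The split of called probes depended on the processing: 57.3% of them were higher as reported, 71.7% after median scaling and 73.4% in the authors' value table. Falls outnumbered rises when arrays were weighted (42.5% higher), without WT-BPIFB4 replicate 1 (42.5%) and with the replicate number as a block (47.2%). The median log2 change over all genes was 0.0043. At least 1 of the 20 processing alternatives ended the call for most genes, but 14 rises and 2 falls were called in every alternative that kept their probe. With the 6 arrays fitted alone, 45 of the 93 rises and 13 of the 56 falls were called.

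**Figure D1:**
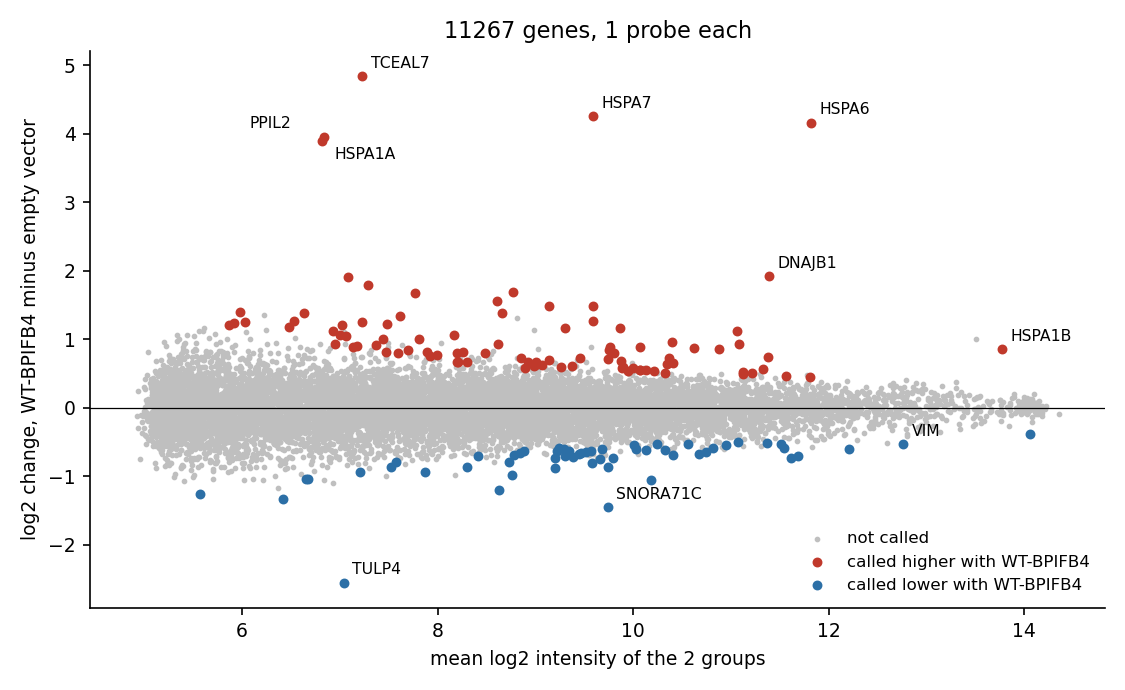
Log2 change (WT-BPIFB4 minus empty vector, y axis) against the mean log2 intensity of the 2 groups (x axis) for 11267 genes. Of the 93 genes called higher (red), TCEAL7, HSPA7, HSPA6, PPIL2 and HSPA1A stand far above the rest, and among the 56 called lower (blue) TULP4 stands lowest.

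Heat shock genes held several of the largest rises. Across 5 lists (HSP70 and HSP110 chaperones, HSP40 co-chaperones, BAG proteins and HSP70 partners, small heat shock proteins with heat shock factors, and HSP90 genes), 7 of 70 measured members rose and 0 fell, beside 0.825% and 0.497% over all genes. Most members were not called, and the median log2 change of the 70 was 0.11. The 7 were HSPA6, HSPA7, HSPA1A, HSPA1B, DNAJB1, BAG3 and HSPB1.

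HSPA6 encodes an HSP70 protein that is close to silent in unstressed human cells. In the empty vector cells here its probe was detected on all 3 arrays, above the kept-probe median of 7.49, so it did not start from silence. Its log2 level was 14.05, 13.88 and 13.78 in WT-BPIFB4 cells, against 9.73, 9.25 and 10.24 in empty vector cells. All WT-BPIFB4 arrays lay above all empty vector arrays, by more than 3 log2 units. The means were 13.90 ± 0.14 and 9.74 ± 0.49 (SD, n = 3 each), a 17.9-fold rise (limma adjusted p = 1.11e-12), and a second HSPA6 probe rose by 4.76 ± 0.19 (SE) on the log2 scale. HSPA7, a transcribed pseudogene beside HSPA6 on chromosome 1 and near-identical to it, had levels of 12.26, 11.25 and 11.64 in WT-BPIFB4 cells, against 7.75, 6.92 and 7.73 in empty vector cells. The groups were again far apart, a 19.1-fold rise (limma adjusted p = 1.98e-10). Probes for HSPA6 and HSPA7 may read each other's transcript, so the 2 rises may not be separate measurements.

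HSPA1A and HSPA1B encode near-identical stress-inducible HSP70 proteins from neighbouring copies on chromosome 6. HSPA1A had log2 levels of 9.04, 8.64 and 8.62 in WT-BPIFB4 cells, against 5.35, 4.58 and 4.67 in empty vector cells. It was detected on all 3 WT-BPIFB4 arrays and on 1 of the 3 empty vector arrays, and it rose by 3.90 ± 0.21 (SE) on the log2 scale, with 2.06 to 4.10 over the alternatives. HSPA1B was already near the top of the intensity range, at 14.22, 14.30 and 14.09 in WT-BPIFB4 cells, against 13.19, 13.72 and 13.15 in empty vector cells. The groups did not overlap, and the rise was 1.81-fold (limma adjusted p = 0.000584). Quantile normalization sets the same maximum of 14.46 on every array, close above these values: the probe's signal ranked 26th, 10th and 82nd of 47310 in WT-BPIFB4 cells, against 394th, 248th and 407th in empty vector cells. The log2 change was 1.09 with median scaling and 1.20 in the authors' value table, against 0.85 as reported. Because the 2 genes are near-identical copies, the division of signal between their probes is uncertain.

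DNAJB1 is the HSP40 co-chaperone that delivers unfolded proteins to HSP70. It had log2 levels of 12.70, 12.08 and 12.26 in WT-BPIFB4 cells, against 10.22, 10.72 and 10.36 in empty vector cells, a 3.77-fold rise with no overlap (limma adjusted p = 9.63e-08). BAG3, a co-chaperone that links HSP70 to autophagy, had 12.06, 11.35 and 11.47 in WT-BPIFB4 cells, against 10.29, 10.71 and 10.52 in empty vector cells. Replicate 1 was the highest WT-BPIFB4 array for both genes, and BAG3 rose 2.17-fold (limma adjusted p = 0.000567). HSPB1, the small heat shock protein HSP27, was the tightest of the 7, at 11.54, 11.52 and 11.60 in WT-BPIFB4 cells, against 10.59, 10.60 and 10.67 in empty vector cells. Its rise was 1.91-fold (limma adjusted p = 2.97e-05). ZFAND2A, a zinc finger protein of the arsenite and heat shock responses that was in none of the lists, had 10.41, 10.22 and 10.36 in WT-BPIFB4 cells, against 8.73, 9.05 and 8.76 in empty vector cells. It rose 2.79-fold without overlap (limma adjusted p = 1.11e-06).

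**Figure D2:**
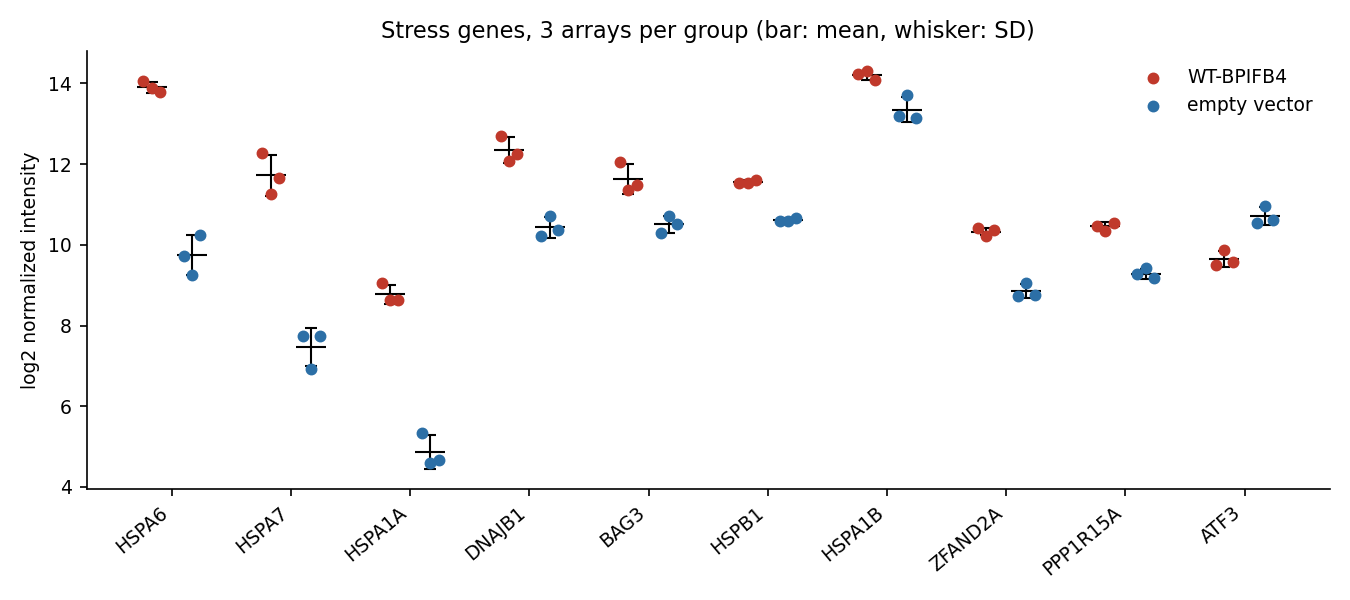
Log2 normalized intensity (y axis) of 10 stress genes on each array, with 3 arrays of WT-BPIFB4 (red) left of 3 of empty vector (blue), the horizontal bar at the mean and the whisker at the SD. The other 9 genes are higher on every WT-BPIFB4 array and ATF3 is lower on every one.

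The promoters of the rising heat shock genes are shown for the heat shock elements in them. Each window runs from 250 bases before to 50 after 1 annotated start per gene, as given by RefSeq on GRCh38.p14. It is printed 5′ to 3′ on the gene's strand, here the plus strand for all 4, with capitals marking the matches. The search used GAANNTTC and TTCNNGAA, which read the same on both strands, and their 3-unit forms GAANNTTCNNGAA and TTCNNGAANNTTC; matches may overlap and are joined where they do.
HSPA6 (chr1:161524290-161524589): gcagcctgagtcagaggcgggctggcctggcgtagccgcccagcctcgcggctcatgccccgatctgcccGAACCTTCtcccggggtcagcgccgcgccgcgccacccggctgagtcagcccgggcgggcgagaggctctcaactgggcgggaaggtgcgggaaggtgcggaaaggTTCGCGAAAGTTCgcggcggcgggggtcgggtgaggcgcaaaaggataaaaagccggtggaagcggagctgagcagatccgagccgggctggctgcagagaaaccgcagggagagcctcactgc
HSPA1A (chr6:31815293-31815592): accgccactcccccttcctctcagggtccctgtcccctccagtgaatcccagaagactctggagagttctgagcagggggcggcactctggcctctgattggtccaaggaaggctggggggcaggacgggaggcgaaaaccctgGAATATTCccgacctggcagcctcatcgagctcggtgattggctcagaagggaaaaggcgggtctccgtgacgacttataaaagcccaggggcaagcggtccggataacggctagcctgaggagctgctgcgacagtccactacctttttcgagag
HSPB1 (chr7:76302423-76302722): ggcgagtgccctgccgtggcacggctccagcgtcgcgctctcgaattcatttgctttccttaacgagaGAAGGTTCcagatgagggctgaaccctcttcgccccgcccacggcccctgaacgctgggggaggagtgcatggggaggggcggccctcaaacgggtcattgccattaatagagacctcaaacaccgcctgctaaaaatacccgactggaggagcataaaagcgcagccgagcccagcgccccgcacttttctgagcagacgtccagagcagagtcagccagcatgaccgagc
HSPA1B (chr6:31827488-31827787): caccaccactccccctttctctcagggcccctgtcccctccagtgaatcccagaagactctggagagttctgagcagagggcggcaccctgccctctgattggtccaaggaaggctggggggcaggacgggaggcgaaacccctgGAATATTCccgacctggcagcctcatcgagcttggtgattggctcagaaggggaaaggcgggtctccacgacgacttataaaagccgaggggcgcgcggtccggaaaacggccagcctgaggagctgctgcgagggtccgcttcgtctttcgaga
HSPA6 held matches starting at -180 and -74 from the start, the nearer one a 3-unit element. HSPA1A held 1 match from -106, HSPA1B 1 from -105 and HSPB1 1 from -182. The windows of HSPA1A and HSPA1B were 92% identical over 301 aligned columns. DNAJB1 and BAG3 had no match in their windows. Because 1 start per gene was searched, a match near any other start of a gene would be missed. A 2-unit match was present in 4 of the 6 rising heat shock genes with a window and in 6 of the 54 measured list members that were not called. It was present in 3738 of 27305 promoters in all (13.7%), in 13 of 55 genes called higher (23.6%) and in 4 of 42 called lower (9.52%). Among promoters of measured genes the share was 9.98%. A 3-unit match was present in 133 of all promoters (0.487%), in 1 of the 6 rising heat shock genes and in 4 of the 54 that were not called (7.41%). A match is a run of letters in a window and not a measured binding site.

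Other members of these lists, both constitutive and stress-inducible, were not called. HSPA8, the housekeeping HSP70, had log2 levels of 13.74, 13.38 and 13.25 in WT-BPIFB4 cells, against 13.78, 13.56 and 13.67 in empty vector cells. Its change was -0.22 on the log2 scale. For HSF1 the change was 0.15, for HSP90AA1 -0.06, for HSP90AB1 0.22, for HSPH1 0.18, for DNAJA1 0.23 and for STIP1, the adaptor between HSP70 and HSP90, 0.44, with limma adjusted p from 0.0574 to 0.811. The median of the 12 HSP70 and HSP110 genes above the empty vector mean was 0.52, 0.02 and -0.08 on WT-BPIFB4 replicates 1, 2 and 3. Without replicate 1, 4 of the 12 were called higher and 2 lower, beside 4.07% and 5.55% of all genes in that setting.

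Genes of the integrated stress response, in which phosphorylated eIF2α slows translation and ATF4 drives recovery genes, included 2 rises and 1 fall among 36 measured members, with a median log2 change of 0.11. At an unadjusted p under 0.05, 11 of the 36 were higher and 2 lower, beside 8.4% higher and 9.37% lower over all genes. On all WT-BPIFB4 arrays 7 lay above all empty vector arrays (19.4%, beside 8.99% over all genes). The called rises numbered 6 without empty vector replicate 2, 4 without WT-BPIFB4 replicate 1, 1 without WT-BPIFB4 replicate 3 and 1 without empty vector replicate 1. Over all kept probes the called rises numbered 130, 692, 51 and 62 in those settings, against 125 as reported. PPP1R15A, the regulatory subunit that returns eIF2α to its unphosphorylated state, had 10.47, 10.35 and 10.55 in WT-BPIFB4 cells, against 9.27, 9.42 and 9.17 in empty vector cells, a 2.25-fold rise (limma adjusted p = 1.74e-05). ATF3, a repressor induced by many stresses, went the other way, at 9.50, 9.87 and 9.58 in WT-BPIFB4 cells, against 10.55, 10.97 and 10.60 in empty vector cells. Neither gene's groups overlapped, and ATF3 was 2.08-fold lower (limma adjusted p = 0.000584). SESN2, a leucine sensor that restrains mTORC1, rose 1.89-fold, while SESN1, its p53-responsive relative, fell 1.62-fold (limma adjusted p = 0.0235 and 0.039); neither was called on the 6 arrays alone. ATF4 changed by -0.02, DDIT3 by 0.75 and TRIB3 by 0.52 on the log2 scale without a call. None of 22 ER chaperones and unfolded protein response genes was called, with 3 higher and 0 lower at an unadjusted p under 0.05. Of 31 immediate early genes, IER5, which works with HSF1, rose 1.64-fold and ID4, an inhibitor of basic helix-loop-helix factors that was detected on 1 of 3 WT-BPIFB4 arrays and on all 3 empty vector arrays, fell, without a call on the 6 arrays alone.

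TCEAL7, another of the largest rises, is an X-linked member of the TCEA-like family of small nuclear proteins. It had log2 levels of 9.85, 9.65 and 9.45 in WT-BPIFB4 cells, against 5.15, 4.65 and 4.63 in empty vector cells. All 3 WT-BPIFB4 arrays detected it and 1 of the 3 empty vector arrays did. Its rise was 4.84 ± 0.18 (SE) on the log2 scale (limma adjusted p = 1.11e-12), with 2.85 to 4.98 over the alternatives. The other 9 measured members of the TCEAL and BEX family were not called. PPIL2, a cyclophilin with a U-box, had 9.40, 8.52 and 8.53 in WT-BPIFB4 cells, against 5.25, 4.67 and 4.66 in empty vector cells, with detection on 3 and 1 arrays. That probe rose by 3.96 ± 0.29 (SE), 2.11 to 4.13 over the alternatives, but a second PPIL2 probe changed by 0.43 and was not called (limma adjusted p = 0.48), so the 2 probes disagree.

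Other coding genes with a clear rise had varied roles. PWWP3A, a DNA damage response protein, was at 8.39, 8.74 and 8.71 in WT-BPIFB4 cells, against 6.57, 7.20 and 7.02 in empty vector cells, a 3.21-fold rise (limma adjusted p = 6.6e-05). DHRS2, a short-chain dehydrogenase, rose 2.62-fold and its second probe rose by 1.67 on the log2 scale. NIBAN1, a stress-responsive protein, rose 2.18-fold and CSNK1D, a casein kinase of the circadian clock, 1.74-fold, and for each of these a second probe rose too. TUBB3, a beta-tubulin typical of neurons, rose 2.33-fold. GCM1, a placental transcription factor, rose 2.39-fold, ZNF268, a KRAB zinc finger gene, 2.65-fold, and FIZ1, a zinc finger partner of the receptor FLT3, 2.38-fold. Among 334 zinc finger genes ZNF268, ZNF256 and ZNF319 rose and ZNF711 fell, ZNF256 and ZNF711 without a call on the 6 arrays alone. These counts are near the shares over all genes, 0.825% higher and 0.497% lower, and the median log2 change of the 334 was 0.01. CDT1, which licenses replication origins, rose 1.65-fold and GINS3, a subunit of the replicative helicase, 1.57-fold, out of 50 replication genes of which 0 fell. E2F2, an activator of S-phase genes, rose 1.85-fold (limma adjusted p = 0.00444).

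Small non-coding RNAs were frequent among the rises. Of 67 C/D box small nucleolar RNAs, which guide 2′-O-methylation, 12 rose and 0 fell. Of 82 H/ACA box and Cajal body RNAs, of which the H/ACA box RNAs guide pseudouridylation, 6 rose and 1 fell. Of 23 spliceosomal, Y and other small RNAs 9 rose and 0 fell. Over all genes 0.825% rose and 0.497% fell. The median log2 changes of the 3 groups were 0.43, 0.33 and 1.00, beside 0.0043 over all genes. Values on all WT-BPIFB4 arrays lay above all empty vector arrays for 32 C/D box RNAs (47.8%), 20 H/ACA box and Cajal body RNAs (24.4%) and 14 of the third group (60.9%), beside 8.99% over all genes.

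SNORD15B, a C/D box RNA, had log2 levels of 8.07, 8.23 and 8.27 in WT-BPIFB4 cells, against 6.08, 6.74 and 6.36 in empty vector cells. The groups were well apart, with a 3.46-fold rise (limma adjusted p = 7.15e-05). SNORD83B was at 9.33, 9.27 and 9.47 in WT-BPIFB4 cells, against 8.09, 7.98 and 7.83 in empty vector cells, a 2.62-fold rise. SNORD33 rose 2.40-fold, SNORD21 2.32-fold, SNORD35A 2.26-fold and SNORD4A 1.91-fold. These RNAs lie in introns of ribosomal protein genes, none of which was called: log2 changes were 0.20 for RPS3 (host of SNORD15B), -0.02 for RPL3 (SNORD83B), -0.01 for RPL13A (SNORD33 and SNORD35A), -0.13 for RPL5 (SNORD21) and 0.05 for RPL23A (SNORD4A). None of 74 cytosolic ribosomal protein genes was called, with 2 higher and 3 lower at an unadjusted p under 0.05. SNORA71C, an H/ACA RNA, was the only called fall in the 3 small RNA groups, at 9.72, 8.46 and 8.86 in WT-BPIFB4 cells, against 10.90, 10.01 and 10.49 in empty vector cells. It fell 2.74-fold (limma adjusted p = 0.00468). Changes were positive for 58 of the 67 C/D box RNAs and 68 of the 82 H/ACA box and Cajal body RNAs. In the third group, 1 of the 23 RNAs was lower on all WT-BPIFB4 arrays, without a call.

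Among spliceosomal RNAs, RNU4ATAC, the U4 RNA of the minor spliceosome, had 7.53, 8.20 and 8.40 in WT-BPIFB4 cells, against 6.21, 5.70 and 6.49 in empty vector cells, a 3.76-fold rise (limma adjusted p = 0.00136). RNU1-3, a U1 gene, had 9.20, 9.68 and 9.99 in WT-BPIFB4 cells, against 7.93, 7.72 and 8.13 in empty vector cells, a 3.24-fold rise. RNVU1-7 rose 2.96-fold, RNVU1-18 2.79-fold and RNU1-1 2.25-fold, but U1 genes are near-identical copies and their probes cannot be taken as separate measurements. RNA5S9, a 5S ribosomal RNA copy, rose 2.40-fold, RNU6ATAC 2.35-fold, VTRNA1-1, a vault RNA, 2.32-fold and RN7SK, which restrains the elongation factor P-TEFb, 1.60-fold. VTRNA1-1 and RN7SK were not called on the 6 arrays alone, and a second RNU6ATAC probe changed by 0.97 without a call. RN7SL1, the RNA of the signal recognition particle, changed by 0.00 and RNY5, a Y RNA, by 1.13 without a call. The levels differed between WT-BPIFB4 arrays: the median of the 23 RNAs above the empty vector mean was 0.44, 0.99 and 1.39 on replicates 1, 2 and 3, against 0.04, -0.20 and 0.18 on the empty vector arrays. On the 6 arrays alone, 7 C/D box RNAs, 0 H/ACA box and Cajal body RNAs and 7 of the third group were called higher. Without WT-BPIFB4 replicate 1 the rises numbered 18, 20 and 16 in the 3 groups, beside 4.07% of all genes in that setting. Without replicate 2 they numbered 7, 0 and 6, and without replicate 3 they numbered 6, 0 and 6. Leaving out an empty vector array gave 6 to 9, 1 to 5 and 6 to 7 rises, leaving out a LAV-BPIFB4 array 9 to 11, 1 and 7 to 8, and median scaling 2, 4 and 6. The total moved in the same settings. Over all kept probes 125 rose as reported, 59 on the 6 arrays alone, and 692, 60 and 51 without WT-BPIFB4 replicates 1, 2 and 3. Without an empty vector array 62 to 130 rose, without a LAV-BPIFB4 array 73 to 86, and with median scaling 38.

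Host genes of small nucleolar RNAs that are themselves non-coding rose in part. SNHG17 had 10.97, 10.74 and 10.91 in WT-BPIFB4 cells, against 10.01, 9.87 and 9.87 in empty vector cells, a 1.94-fold rise (limma adjusted p = 7.15e-05). SNHG15 rose 1.67-fold on 1 probe and by 0.74 on the log2 scale on the other, SNHG11 1.90-fold, SNHG32 1.37-fold and ZFAS1 1.49-fold. On the 6 arrays alone SNHG11, SNHG32 and ZFAS1 were not called. These 4 SNHG genes were the only ones called of 133 long non-coding RNAs in the list, beside 0.825% higher over all genes. The median of the 133 was 0.09. Of the 133, 11 were called higher without WT-BPIFB4 replicate 1, beside 4.07% of all genes in that setting, and 0 with median scaling. Of 36 microRNA genes on kept probes none was called, beside 1.32% of all genes called in either direction. For the 28S ribosomal RNA gene RNA28SN5, probes fell by 0.38 and by 1.02 on the log2 scale, and the first, not called on the 6 arrays alone, changed by as little as -0.09 in the alternatives.

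**Figure D3:**
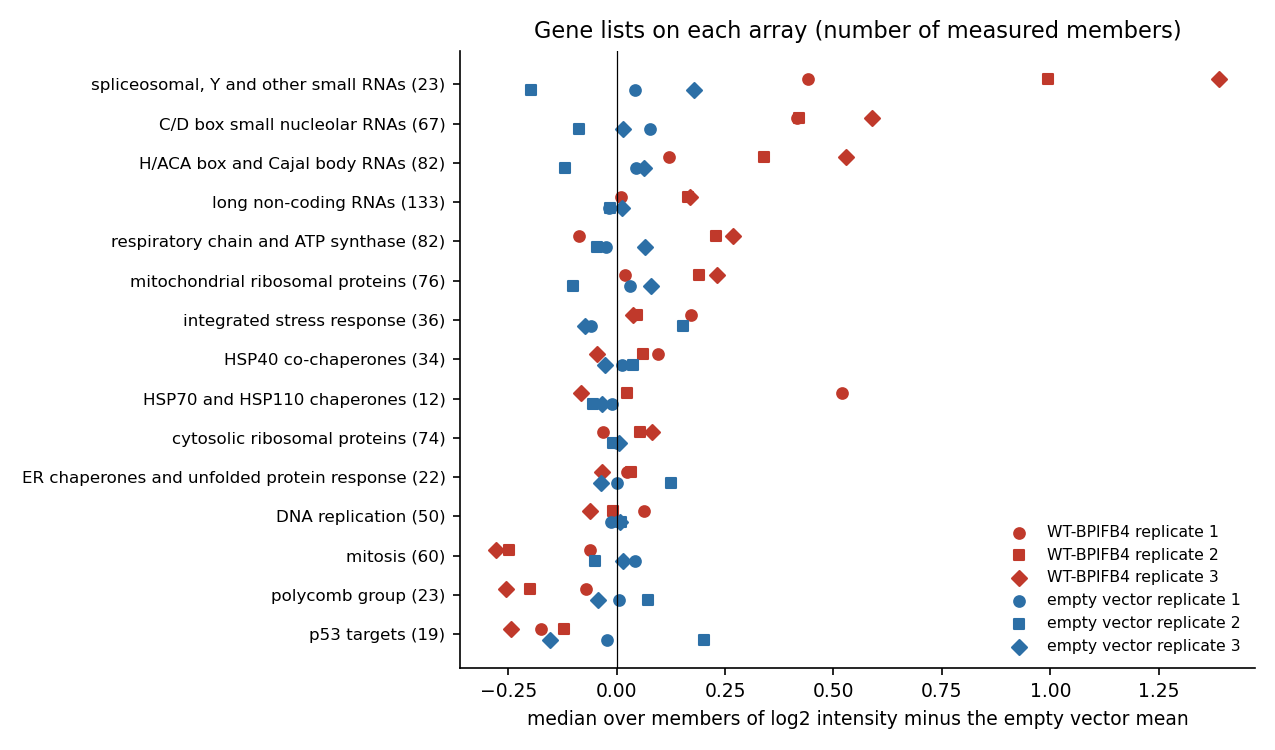
Median over the measured members of 15 gene lists of the log2 intensity minus the empty vector mean (x axis), 1 point for each WT-BPIFB4 array (red) and each empty vector array (blue), with shapes for replicates. The 3 small RNA lists lie to the right on all WT-BPIFB4 arrays, and for mitosis and respiratory chain genes WT-BPIFB4 replicate 1 lies nearer to the empty vector arrays than replicates 2 and 3.

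The falls were led by TULP4, a tubby-like protein with a SOCS box. Its probe had log2 levels of 5.93, 5.90 and 5.45 in WT-BPIFB4 cells, against 8.28, 8.37 and 8.29 in empty vector cells. The groups lay more than 2 log2 units apart, a 5.86-fold fall (limma adjusted p = 1.46e-06). A second TULP4 probe changed by 0.09 and was not called, so the 2 probes disagree. DYNLT3, a dynein light chain, had 8.14, 8.06 and 7.88 in WT-BPIFB4 cells, against 9.43, 9.08 and 9.17 in empty vector cells, a 2.30-fold fall (limma adjusted p = 0.000584). DYNLT3 and TULP4 were the 2 falls called in every alternative that kept them.

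Among the other falls, HGS, which sorts ubiquitinated receptors on endosomes, was at 9.18, 9.19 and 9.59 in WT-BPIFB4 cells, against 10.16, 10.31 and 10.06 in empty vector cells, a 1.82-fold fall (limma adjusted p = 0.00275). CEP350, a centrosomal protein, was at 9.19, 9.13 and 9.21 in WT-BPIFB4 cells, against 10.08, 9.80 and 10.06 in empty vector cells, a 1.75-fold fall (limma adjusted p = 0.00866). TAOK1, a kinase upstream of p38 and Hippo signalling, fell 1.97-fold, and WSB2, a SOCS box protein, 2.06-fold. OSBPL8, a lipid transfer protein of the endoplasmic reticulum, fell on both probes, by 0.86 and 1.05 on the log2 scale, and was not called on the 6 arrays alone. ARID4B, a chromatin regulator, fell on 2 of 3 probes. VIM, the intermediate filament vimentin, had 12.63, 12.45 and 12.42 in WT-BPIFB4 cells, against 13.02, 13.11 and 12.96 in empty vector cells, a 1.44-fold fall (limma adjusted p = 0.00857), and its second probe fell by 0.47 on the log2 scale. Further falls of 1.66- to 2.05-fold were in ZNF711, ZFP1, KDM3A, BAGE5, TBC1D9, PREPL, DCUN1D4, NBPF9 and LRP11, none of which but NBPF9 was called on the 6 arrays alone. Second probes of ZFP1, PREPL, DCUN1D4 and NBPF9 were not called, that of NBPF9 changing by 0.48, in the other direction. PHC1, a polycomb subunit detected on 2 of 3 WT-BPIFB4 arrays and on all 3 empty vector arrays, was the only call among 23 polycomb genes and was not called on the 6 arrays alone. Values of 8 of those 23 lay lower on all WT-BPIFB4 arrays (34.8%), beside 9.28% over all genes.

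**Figure D4:**
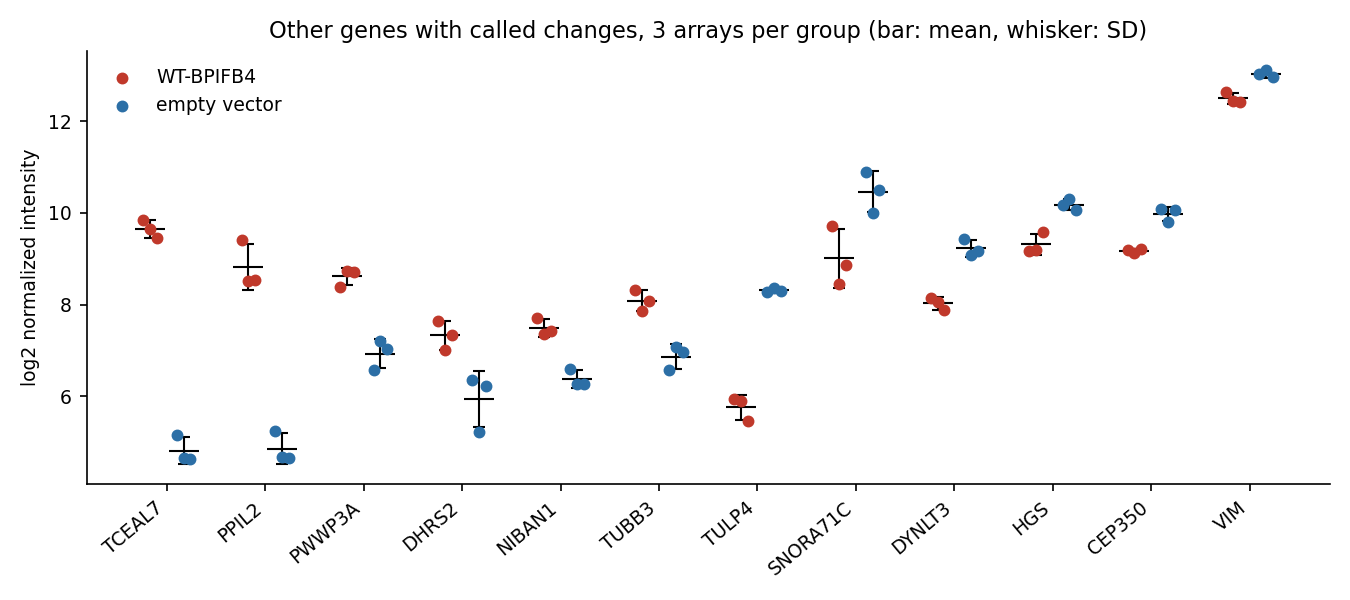
Log2 normalized intensity (y axis) of 12 other called genes on each array, with WT-BPIFB4 (red) left of empty vector (blue), the horizontal bar at the mean and the whisker at the SD of 3 arrays. TCEAL7 and PPIL2 lie about 4 or more log2 units higher with WT-BPIFB4, TULP4 fell by 2.55, and the groups overlap for none of the 12.

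Cell cycle genes gave few calls. Of 60 mitotic genes 1 fell, CENPE, a kinesin of the kinetochore, by 1.54-fold (limma adjusted p = 0.0408), and 22 were lower and 2 higher at an unadjusted p under 0.05, beside 9.37% lower and 8.4% higher over all genes. CENPE was not called on the 6 arrays alone. The second CENPE probe changed by -0.61 without a call. TOP2A, the mitotic topoisomerase, changed by -0.47 and BUB1, a spindle checkpoint kinase, by -0.50 without a call. The median of the 60 was -0.06, -0.25 and -0.28 on WT-BPIFB4 replicates 1, 2 and 3, and 17 (28.3%) were lower on all WT-BPIFB4 arrays, beside 9.28% over all genes. Without WT-BPIFB4 replicate 1, 17 mitotic genes were called lower, beside 5.55% of all genes in that setting. Of 19 p53 targets SESN2 rose and SESN1 fell, with a median log2 change of -0.12. Of the 19, 6 were lower on all WT-BPIFB4 arrays (31.6%) and 1 was higher on all, and at an unadjusted p under 0.05 6 were lower and 2 higher. Of 82 respiratory chain and ATP synthase genes none was called, and 18 were higher and 4 lower at an unadjusted p under 0.05, beside 8.4% and 9.37% over all genes. The median of the 82 above the empty vector mean was -0.09, 0.23 and 0.27 on WT-BPIFB4 replicates 1, 2 and 3. On the empty vector arrays it was -0.03, -0.05 and 0.07, so replicate 1 did not share the rise. Without WT-BPIFB4 replicate 1, 23 were called higher and 2 lower, beside 4.07% and 5.55% of all genes in that setting. Of 76 mitochondrial ribosomal protein genes MRPL18 rose, 1.38-fold (not called on the 6 arrays alone, and its second probe changed by 0.27 without a call), and 60 had a positive change (78.9%, beside 50.6% of all genes). The median of the 76 was 0.02, 0.19 and 0.23 on WT-BPIFB4 replicates 1, 2 and 3, against 0.03, -0.10 and 0.08 on the empty vector arrays.

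In the vessel growth list, a setting in which BPIFB4 has been studied, none of 19 measured genes was called (1 higher and 2 lower at an unadjusted p under 0.05), with VEGFA at 0.05 on the log2 scale. None of 6 genes of the 14-3-3 proteins, which are reported partners of BPIFB4, was called, and 0 had an unadjusted p under 0.05. Over all genes 8.4% were higher and 9.37% lower at an unadjusted limma p under 0.05. In all, 22 of the 44 lists held no call, among them NF-kappaB targets, interferon-stimulated genes, NRF2 targets, sterol synthesis, proteasome and autophagy. With 1.32% of all genes called, a short list can hold no call without differing from the other genes.

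Rising and falling coding genes differed in the length of DNA they span. The span from first to last annotated base (RefSeq, GRCh38.p14) had a median of 13.6 kb for the 58 coding genes called higher, 55.4 kb for the 53 called lower and 30.5 kb for all 10645 measured. Coding genes were put in 4 equal groups by span. In the group of shortest genes, with a median span of 6.09 kb, 25 rose and 6 fell. In the group of longest genes, with a median of 135 kb, 4 rose and 22 fell. The medians over all measured genes also fell with span on WT-BPIFB4 replicates 2 and 3: the median of the shortest group above the empty vector mean was -0.01, 0.16 and 0.19 on replicates 1, 2 and 3, and that of the longest group was -0.04, -0.11 and -0.20. On the empty vector arrays all such medians lay between -0.03 and 0.04.

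**Figure D5:**
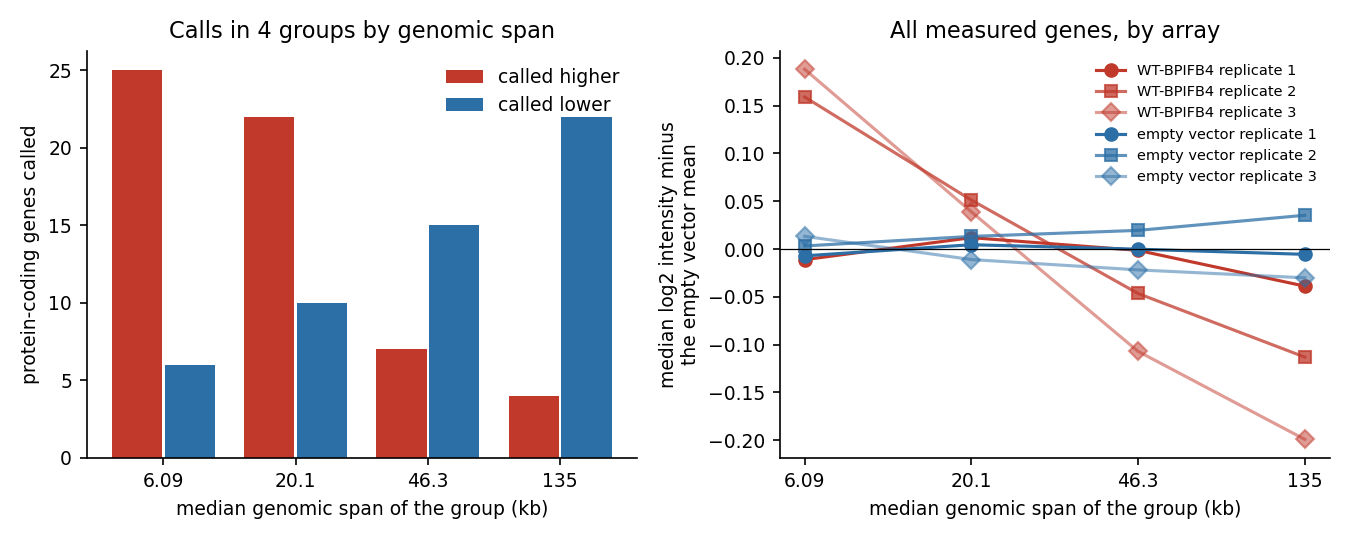
Left, the number of coding genes called higher and lower (y axis) in each of 4 groups by genomic span, labelled by its median in kb (x axis). Right, the median log2 intensity minus the empty vector mean (y axis) of all measured genes in those groups for each array, falling with span on WT-BPIFB4 replicates 2 and 3 and nearly level on replicate 1 and on the empty vector arrays.

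The medians of the called genes differed between WT-BPIFB4 arrays less for rises than for falls. The median of the 93 rising genes above the empty vector mean was 0.86, 0.81 and 0.93 on replicates 1, 2 and 3, and that of the 56 falling genes was -0.51, -0.70 and -0.87. Replicate 1 was the highest of the 3 WT-BPIFB4 arrays in 41 of the 56 falling genes. Single rises were less uniform than their medians: of the 93, replicate 1 was the lowest WT-BPIFB4 array in 45 and the highest in 31. Replicate 3 was the highest in 48. Leaving out replicate 1 raised the number of called probes to 1629, while leaving out replicate 2 or 3 lowered it to 82 or 67.

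No probe passed the limma threshold between the variant and the wild-type form. Between LAV-BPIFB4 and WT-BPIFB4 arrays 0 probes were called, the smallest limma adjusted p being 0.515. Of the 19327 kept probes 890 had an unadjusted limma p under 0.05, and 33 of these were among the 218 called with WT-BPIFB4. The same WT-BPIFB4 arrays enter both comparisons, so that overlap is not independent evidence of a difference. The LAV-BPIFB4 level minus the WT-BPIFB4 level was 0.14 for HSPA6, 0.70 for HSPA7, 0.60 for HSPA1A, 0.00 for HSPB1 and -0.19 for TCEAL7 on the log2 scale. A difference that misses the threshold does not show that the 2 forms act alike.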

How the data were processed

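Per the file headers, the authors deposited, for each probe and array, a non-normalized intensity with its detection p-value; per the submitters' processing notes they used BeadStudio, version not given in the sources used here. The authors' value table holds a second intensity, normalization unstated, which for these 6 arrays was a linear function of the first. For the LAV-BPIFB4 arrays it was not (correlation 0.985 to 0.989), and the alternative fit on the value table included those arrays. From these deposited values, log2 intensities of all 9 arrays were computed with the neqc function of limma 3.58.1 (R 4.3.3), which subtracts a background estimated from the detection p-values, adds an offset, here 16, and quantile-normalizes. A model with 3 group means over the 9 arrays was fitted with lmFit and eBayes (intensity trend), which lets the LAV-BPIFB4 arrays share the estimate of spread, and Benjamini-Hochberg adjustment ran over the 19327 kept probes (threshold 0.05, two-sided). The number of arrays limits the precision. Fold changes are from log2 differences after the offset, which understates changes of dim probes.

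Gene symbols were those of the platform annotation, with 30066 of 30105 single-symbol probes matched to RefSeq; 4373 kept probes had none or several and went unnamed. Promoters and genomic spans are RefSeq's. Members and lists were chosen with earlier results of these data known. Named were the 20 largest changes in each direction among called genes without overlap, up to 5 called members of each list, up to 12 called genes with 2 or more called probes in one direction, called genes detected on all arrays of one group and none of the other (there were none), and BPIFB4. Uncalled genes, and TUBB3, RNU6ATAC, RNU1-1, RN7SK, VTRNA1-1, SNORD4A and ZFAS1, were named after their values were seen. The pipeline was tested on simulated data.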

Additional observations from a re-analysis of the deposited data

How the results depend on the processing

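The 72 named genes kept their direction in each of the 20 alternatives that kept their probe, but their calls did not. The number of called probes, 218 as reported, was 204 with an offset of 50, 210 without background correction, 214 from the value table, 208 with a detection p under 0.01 on all 6 arrays and 224 with the filter over 9 arrays. It was 88 with the 6 arrays alone, 53 with median scaling, 105 with no probe filter, 34 with no trend of the variance on intensity and 1236 when arrays were weighted. The similar total from the value table hides a different set: 157 were higher and 57 lower, and 161 of its calls were also called as reported. Leaving out 1 array gave 67 to 1629: 1629, 82 and 67 without WT-BPIFB4 replicates 1, 2 and 3, 82, 248 and 96 without empty vector replicates 1, 2 and 3, and 132, 130 and 111 without LAV-BPIFB4 replicates 1, 2 and 3. The causes were not tested. Of the 72 named genes, 26 lost their call with the 6 arrays alone, 44 with median scaling, 52 without the trend, 23 with no filter and 35 each without WT-BPIFB4 replicate 3 or empty vector replicate 1.

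With the replicate number as a block 849 probes were called. Deviations of same-numbered WT-BPIFB4 and empty vector arrays correlated at 0.099, 0.233 and 0.078, not all above 0.1, so the numbers were not taken as pairs, although each array correlated best with its own number. Depth in the sense of reads does not apply; dim probes, such as those of HSPA1A, TCEAL7 and PPIL2 in empty vector cells, limit the size of a fold change.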
